A study of Mus musculus with 6 samples.

Results

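Genes of the Id family and of feedback on bone morphogenetic protein (BMP) signalling were followed in mouse CAD cells before and after differentiation with dexamethasone: Id1, Id2, Id3, Id4, Smad6, Smad7, Bambi and Bmp4. They are 8 of the 55536 genes in the count files. They were chosen by name, by matching gene symbols to the identifiers of the files, with the fall of Id2 and Id3 between these same libraries already known. Their differences between the 2 groups are therefore given as a description without a test. CAD is a male catecholaminergic line of the mouse central nervous system, strain C57BL/6 x DBA/2, transformed with simian virus 40. Undifferentiated, proliferating cells (control) grew in DMEM/F12 with 8% serum. Differentiated cells were kept for 5 days in 100 µM dexamethasone, a synthetic glucocorticoid, with 1% serum. Each group had 3 libraries of this 1 line, and the steroid and the lower serum cannot be told apart. The samples are called independent, but no separate cultures are named, so p-values measure the spread between these libraries, which may be technical.

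Id proteins are helix-loop-helix factors without the basic region that binds DNA. They pair with E proteins, the shared partners of many basic helix-loop-helix (bHLH) factors, and keep them off their E-box sites, which in neural cells is known to hold back neuronal differentiation. BMP ligands bind paired type 1 and type 2 serine/threonine kinase receptors, which phosphorylate SMAD1, SMAD5 and SMAD9. These join SMAD4 and switch on targets that include the Id genes and the feedback inhibitors SMAD6, SMAD7 and BAMBI.

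The counts summed to between 6411105 and 8757992 reads per library, and 3 reads in a library corresponded to between 0.327 and 0.487 CPM (counts per 1000000 reads, scaled between libraries). All 10 markers of the catecholaminergic line reached at least 1 CPM in a group, among them Dbh, Phox2a and Hand2. Markers of other cell types were few: the 5 astrocyte markers summed to at most 1.64 CPM in any library and the 5 microglial and blood markers to at most 0.596 CPM. The 5 endothelial markers summed to 18.3 to 21.3 CPM in undifferentiated and 33.3 to 35.6 CPM in differentiated libraries, nearly all of it Pecam1 (19.5 ± 1.30 and 33.1 ± 0.882 CPM, SD, n = 3). Cdh5 had no read in undifferentiated and 7, 17 and 9 reads in differentiated libraries, Kdr had at most 4 reads in a library, and Tie1 and Cldn5 had none. The 6 fibroblast markers summed to 10.1 to 13.7 CPM and to 18.3 to 20.3 CPM, with Col3a1 at 0. Most of that was Dcn, which rose 2.12-fold, from 8.30 ± 1.50 to 17.6 ± 0.896 CPM (SD, n = 3; edgeR adjusted p = 1.04e-07). The 5 oligodendrocyte and Schwann cell markers stayed at or under 4.36 CPM, with Sox10 and Olig2 at 0. The part of such cells in the values of the members was not tested. In this bulk material, fewer cells that express a gene and less RNA per cell cannot be told apart.

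Promoter sequences were available here for Id2, Id3, Id4, Smad6 and Bmp4 (RefSeq, GRCm38.p6, the build of the counts); Id1, Smad7 and Bambi were not among them. They are shown because the GC-rich element GGCGCC, known to be bound by SMAD1 and SMAD5, stands in those of Id2 and Id4, and the palindrome GTCTAGAC, known to be bound by SMAD3 and SMAD4, in that of Smad6. The windows run on the strand of the gene, 5′ to 3′, with these elements in capitals. That of Id2 is chr12:25096254-25096342, minus strand, an intron of the longest transcript, 250 to 162 bases before the RefSeq start site. That of Id4 is chr13:48260866-48261115, plus strand, the 250 bases before the start site. That of Smad6 is chr9:64022045-64022309, minus strand, from 250 bases before the start site to 15 bases of transcript.
Id2: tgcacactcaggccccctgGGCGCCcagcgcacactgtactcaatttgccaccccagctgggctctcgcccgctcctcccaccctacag
Id4: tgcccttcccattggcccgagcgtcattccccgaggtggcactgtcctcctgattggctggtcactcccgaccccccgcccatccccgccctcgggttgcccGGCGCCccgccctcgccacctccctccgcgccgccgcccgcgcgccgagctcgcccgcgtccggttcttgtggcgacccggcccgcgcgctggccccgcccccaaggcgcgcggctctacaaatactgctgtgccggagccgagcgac
Smad6: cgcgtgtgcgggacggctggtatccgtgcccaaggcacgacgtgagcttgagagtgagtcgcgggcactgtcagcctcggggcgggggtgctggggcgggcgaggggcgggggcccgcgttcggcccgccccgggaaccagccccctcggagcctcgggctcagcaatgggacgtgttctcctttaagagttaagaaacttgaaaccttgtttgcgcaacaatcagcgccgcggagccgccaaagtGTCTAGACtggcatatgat

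Motifs were searched on both strands in the 300 bases from 250 before to 50 after the RefSeq start site, and the shares are of all 32851 windows of that table. GGCGCC was found in 11.9% of windows. Counted from the start site, it began at -231 in Id2 and at -148 in Id4, in a stretch with 75.6% G and C for Id4 and 67.4% for Id2. GTCTAGAC was found in 0.213% of windows and in Smad6 spans the start site, beginning at -4. This palindrome was added to the search after the Smad6 sequence had been seen. An E-box (CANNTG), the site of bHLH pairs, was present in 72.3% of windows, and in those of Id2, Smad6 and Bmp4, 3 times in Bmp4. The glucocorticoid receptor element part AGAACA, found in 19.0% of windows, was present in Smad6 on the other strand, beginning at -76. CAGACA (21.0% of windows), TGACGTCA (1.79%) and the Egr1 site GCGGGGGCG (2.91%) were in none of the 5 windows, and the Id3 window held none of the 7 motifs. The window of Id3 lies wholly in an annotated exon and is not shown. A match is a description of letters and not of binding.

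The 7 members with reads were all lower in differentiated cells, from 2.82-fold for Id1 to 28.9-fold for Id3. In each, every differentiated library lay below every undifferentiated library, a pattern found in 38.9% of the 12664 genes that passed the filter on low counts, with the reverse in 41.0%. The eighth, Bmp4, had no read in any library. Fold changes are those of edgeR's quasi-likelihood fit. The fit called all 7 lower at a Benjamini-Hochberg adjusted p under 0.05, where 38.6% of tested genes were called lower, 40.3% higher and 78.9% either way. Since the members were chosen on this comparison, nothing is read from that count.

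**Figure D1:**
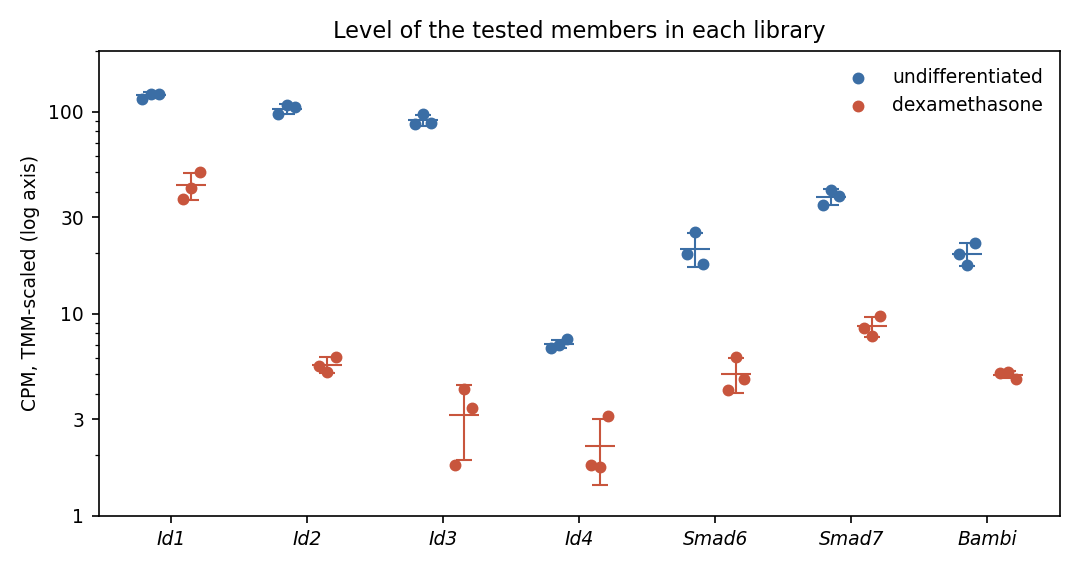
Level of the 7 members with reads in each library, in TMM-scaled CPM on a log axis; points are libraries, the horizontal marks are group means and the bars SDs (n = 3). In every gene the 3 differentiated libraries lie below the 3 undifferentiated libraries, with the widest gap for Id3 and the narrowest for Id1 and Id4.

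Id3 lies on chromosome 4 (ENSMUSG00000007872, 136143497 to 136145755, plus strand) and encodes an Id protein that responds quickly to BMP and serum. Its undifferentiated libraries held 613, 765 and 543 reads, or 86.6, 97.5 and 88.1 CPM for replicates 1, 2 and 3. Its differentiated libraries held 16, 39 and 23 reads, or 1.77, 4.25 and 3.42 CPM. The undifferentiated libraries were close to each other, while the differentiated ones spread over a wide relative range, with replicate 1 lowest. The log2 fold change was -4.85 ± 0.134 (SE), from 90.8 ± 5.89 to 3.15 ± 1.26 CPM (SD, n = 3). Between single libraries the drop ranged from 20.4-fold to 55.0-fold. Of the 12664 tested genes, 18, Id3 included, had a log2 fold change at or below that of Id3.

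Id2 (ENSMUSG00000020644, chromosome 12, 25093799 to 25097140, minus strand), whose product is known as a partner of the retinoblastoma protein as well as of E proteins, had 96.8, 108 and 105 CPM in undifferentiated replicates 1, 2 and 3. It had 5.54, 5.12 and 6.11 CPM in the differentiated ones, from 50, 47 and 41 reads. Both groups were tight, and no 2 libraries from different groups came nearer than 15.9-fold. Id2 thus had a log2 fold change of -4.22 ± 0.099 (SE), an 18.6-fold drop, and 70 tested genes, Id2 included, had a change at or below it.

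Id1 (ENSMUSG00000042745, chromosome 2, 152736251 to 152737410, plus strand), a widely used readout of BMP signalling, kept a larger share of its level. It stood at 115, 123 and 122 CPM in undifferentiated replicates 1, 2 and 3 and at 37.0, 42.0 and 50.3 CPM in the differentiated ones. The highest differentiated library was still 2.29-fold below the lowest undifferentiated library. The log2 fold change was -1.49 ± 0.077 (SE), a 2.82-fold drop that left 35.9% of the undifferentiated mean. In differentiated cells Id2 was at 5.41% and Id3 at 3.47% of theirs.

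Id4 (ENSMUSG00000021379, chromosome 13, 48261228 to 48266026, plus strand), the member of the family known for roles in neural precursors, was the least abundant of the 4. It had 6.78, 7.01 and 7.47 CPM in undifferentiated and 1.77, 1.74 and 3.13 CPM in differentiated replicates 1, 2 and 3, from 16, 16 and 21 reads. Differentiated replicate 3 lay above the other two, and all 3 lay below the undifferentiated libraries. At -1.72 ± 0.238 (SE), a 3.29-fold drop, its log2 fold change was the least precise among the members. Id4 overlaps 2 annotated genes on the opposite strand, A330033J07Rik and Gm49291, which had no read in any library.

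**Figure D2:**
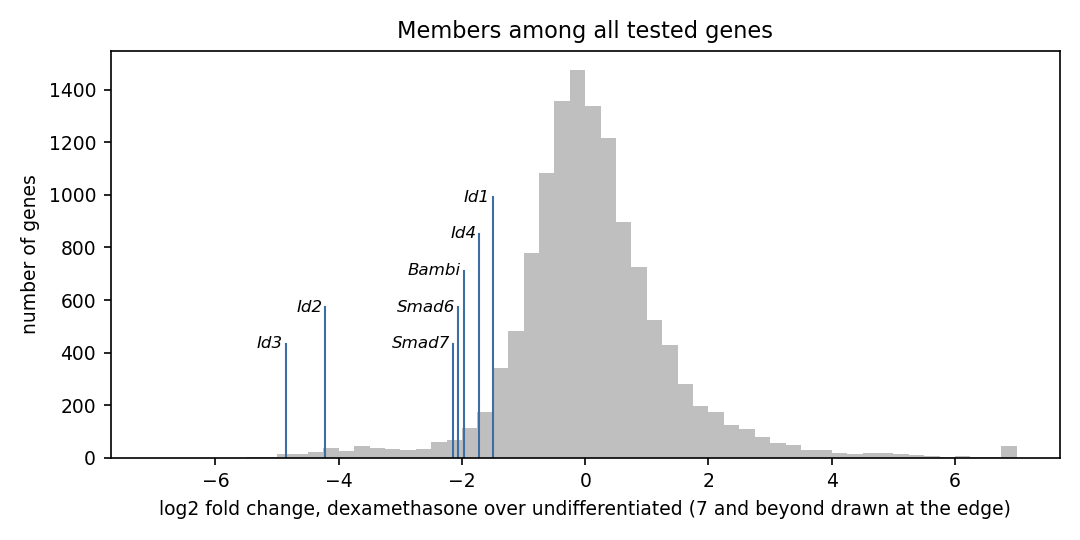
Log2 fold changes of all 12664 tested genes (grey, number of genes in steps of 0.25) with those of the 7 tested members marked by lines whose height has no meaning. Id3 and Id2 lie in the far lower tail, at -4.85 and -4.22, and the other 5 between -2.14 and -1.49.

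Levels of different genes were compared per length, as CPM per kilobase of counted exon. In undifferentiated cells Id1 came first with 104 ± 3.54, then Id3 with 50.7 ± 3.29, Id2 with 42.4 ± 2.40 and Id4 with 1.84 ± 0.0905 (SD, n = 3), with no overlap between neighbours in that order. In CPM, Id2 was above Id3 in each undifferentiated library. The order of these genes thus rests on their counted exon lengths, 2438 bases for Id2 and 1791 for Id3. In differentiated cells Id1 stood at 37.1 ± 5.82, and Id2 (2.29 ± 0.202) and Id3 (1.76 ± 0.705) overlapped, while Id4 was at 0.575 ± 0.205. The summed level of the 4 genes went from 198 ± 8.64 to 41.8 ± 6.53 CPM per kilobase (SD, n = 3), 4.75-fold lower.

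The make-up of the family, a ratio within each library that no scaling between libraries can alter, moved toward Id1. The shares themselves depend on the counted exon lengths. Id1 made up 52.6%, 51.3% and 52.8% of the summed per-length level in undifferentiated replicates 1, 2 and 3. In differentiated replicates 1, 2 and 3 it made up 89.6%, 88.0% and 89.2%. Id3 went from 25.5% ± 0.846 to 4.16% ± 1.51 and Id2 from 21.3% ± 0.322 to 5.55% ± 0.720 (SD, n = 3). The share of Id4 was 0.928% ± 0.0453 and 1.36% ± 0.289.

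The genes of the E proteins, which the Id proteins bind, differed by at most 1.77-fold. Tcf3, which encodes E12 and E47, fell 1.77-fold, from 106 ± 4.44 to 60.1 ± 5.30 CPM (SD, n = 3; edgeR adjusted p = 1.03e-11). Tcf12 was 1.18-fold lower (edgeR adjusted p = 0.00046, but 0.0619 with library totals as the only scaling). Tcf4 had 279 ± 13.9 CPM in undifferentiated and 282 ± 16.9 CPM in differentiated cells, a difference not called (edgeR adjusted p = 0.806). With upper quartile factors and with library totals alone it was called slightly higher (log2 fold change 0.12 and 0.14). The median log2 fold change of the 3 was -0.24, against 0.02 over all tested genes. Summed per length, the 3 E protein genes went from 42.6 ± 0.690 to 30.3 ± 0.664 CPM per kilobase. The ratio of the summed Id level to the summed E protein level was 4.38, 4.93 and 4.66 in undifferentiated and 1.20, 1.33 and 1.59 in differentiated replicates 1, 2 and 3. Counted exon length takes in all annotated exons of a gene, 27382 bases for Tcf4, 15529 for Tcf12 and 4039 for Tcf3. Tcf4, with the most reads of the 3, thus weighs less than Tcf3 in undifferentiated cells, at 10.2 against 26.3 CPM per kilobase. The E protein sum, the size of its fall and the ratio therefore depend on these lengths. The ratios are of transcripts, and protein was not measured.

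**Figure D3:**
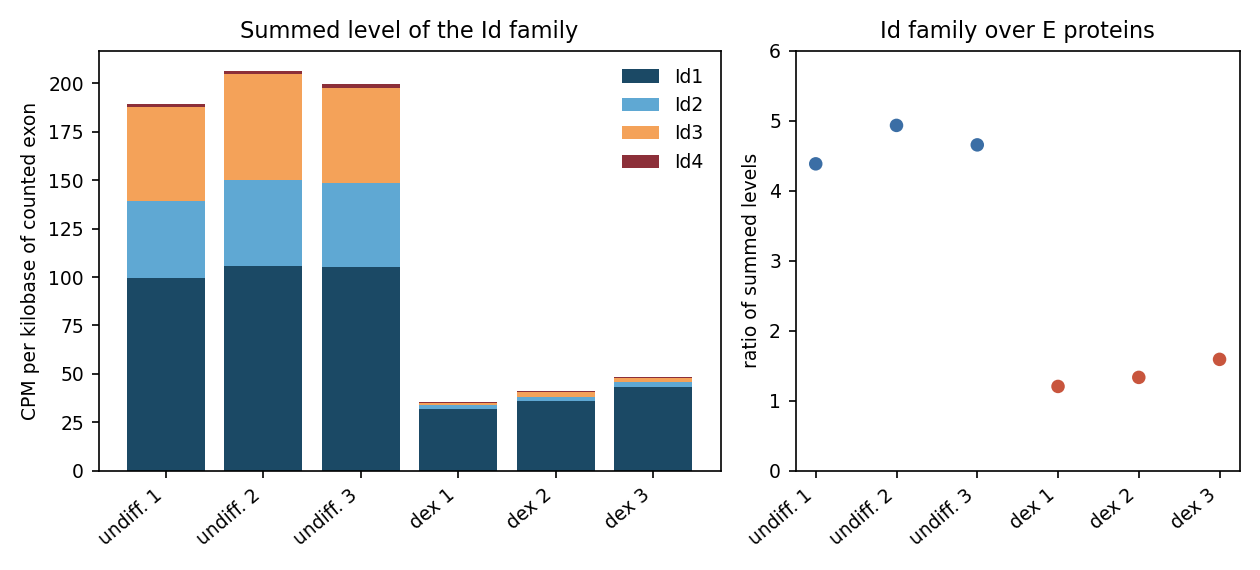
Left, summed level of Id1, Id2, Id3 and Id4 in each library, in CPM per kilobase of counted exon, stacked by gene; right, the ratio of that sum to the sum of Tcf3, Tcf4 and Tcf12. The bars fall from between 189 and 207 to between 35.6 and 48.6 and consist mostly of Id1 in the differentiated libraries, where the ratio is at most 1.59.

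The 3 feedback inhibitors stood close together in the size of their change. Smad7 (ENSMUSG00000025880, chromosome 18, 75367529 to 75395935, plus strand), an inhibitory SMAD that blocks receptors of both the BMP and the TGF-beta branch, had 34.3, 41.0 and 38.1 CPM in undifferentiated replicates 1, 2 and 3. In differentiated replicates 1, 2 and 3 it had 8.53, 7.74 and 9.68 CPM. The log2 fold change was -2.14 ± 0.115 (SE), a 4.42-fold drop, and libraries of different groups were at least 3.55-fold apart.

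Smad6 (ENSMUSG00000036867, chromosome 9, 63953076 to 64022059, minus strand), the inhibitory SMAD that acts mainly on the BMP branch, had 19.8, 25.5 and 17.7 CPM in undifferentiated and 4.21, 6.10 and 4.77 CPM in differentiated replicates 1, 2 and 3. Replicate 2 was the highest in both groups. The log2 fold change was -2.06 ± 0.167 (SE), a 4.18-fold drop. Bambi (ENSMUSG00000024232, chromosome 18, 3507923 to 3516404, plus strand) encodes a pseudoreceptor that lacks the kinase domain. It had 19.6, 17.3 and 22.4 CPM in undifferentiated and 5.09, 5.12 and 4.77 CPM in differentiated replicates 1, 2 and 3. Its log2 fold change was -1.97 ± 0.152 (SE), a 3.91-fold drop, and its processed pseudogene Bambi-ps1 had no counted read. The log2 fold changes of the 3 inhibitors lay within 0.18 of each other, a gap near their standard errors.

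Bmp4 (ENSMUSG00000021835, chromosome 14, 46383520 to 46390669, minus strand), the only ligand among the members, had 0 of 22059833 reads in undifferentiated and 0 of 23921003 reads in differentiated cells. A count of 0 allows up to 3 reads, or 0.142 and 0.120 CPM over the group, for counting error only. No difference was detectable at this depth. Of the other 12 BMP ligand genes looked at, Bmp2, Bmp3, Bmp6, Bmp10, Gdf2 and Gdf6 had no read either, and 5 had too few to test. Bmp7 was the only ligand tested. It had 205, 203 and 169 reads in undifferentiated and 751, 767 and 574 in differentiated replicates 1, 2 and 3, and rose 3.07-fold, from 27.4 ± 1.55 to 84.1 ± 1.23 CPM (SD, n = 3; edgeR adjusted p = 2.81e-17). The transcript of this ligand went the opposite way to the 7 members.

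Most receptor genes were detected in both groups. Of 11 receptor and coreceptor genes 9 were tested, and 3 were called higher and 3 lower (median log2 fold change -0.04). This count and those of the lists that follow stand against 40.3% called higher and 38.6% lower among all tested genes. The type 1 receptor gene Bmpr1a, the most abundant per length, had 120 ± 9.26 CPM in undifferentiated and 117 ± 7.41 CPM in differentiated cells (SD, n = 3), a difference not called (edgeR adjusted p = 0.561). The type 2 receptor gene Bmpr2 went from 112 ± 10.8 to 122 ± 9.95 CPM, which was not called (edgeR adjusted p = 0.0916). It was called higher, by at most 1.19-fold, with upper quartile factors, with library totals alone, and without undifferentiated replicate 2 or differentiated replicate 3. Bmpr1b, another type 1 receptor gene at a lower level, fell 2.88-fold, from 12.1 ± 1.23 to 4.15 ± 1.20 CPM (SD, n = 3; edgeR adjusted p = 3.49e-08). Acvr2b fell 2.35-fold, while Acvr2a rose 1.40-fold and Acvr1 1.24-fold (edgeR adjusted p = 2.25e-06, 4.41e-06 and 0.00427). Acvrl1 was near 1 CPM in both groups and was not called (edgeR adjusted p = 0.517). The coreceptor gene Rgmb rose 1.93-fold (edgeR adjusted p = 2.74e-13).

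Among the SMAD transducers 2 of 6 were called higher and 2 lower, with a median log2 fold change of 0.04. Smad1 and Smad5, which carry the BMP signal, were at 65.8 ± 2.12 and 67.3 ± 4.12 CPM and at 98.2 ± 1.89 and 113 ± 9.34 CPM (SD, n = 3). Smad5 rose 1.15-fold (edgeR adjusted p = 0.00444), while Smad1 was not called (0.605) except with library totals alone (0.0286). Smad9, the third BMP transducer, fell 2.31-fold, from 23.7 ± 1.44 to 10.2 ± 0.248 CPM (edgeR adjusted p = 2.95e-10). The common partner Smad4 was 1.17-fold lower (edgeR adjusted p = 0.00116, but 0.0594 with upper quartile factors and 0.126 with library totals alone). Of the transducers of the TGF-beta branch, Smad3 rose 1.27-fold (edgeR adjusted p = 0.00446). Smad2 was not called (0.459), but was called higher with upper quartile factors (0.0196) and library totals alone (0.00713).

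Genes that act on SMADs inside the cell went both ways, with 5 of 14 tested called higher and 6 lower (median log2 fold change -0.07). The corepressor genes Skil and Tgif2 fell 1.97-fold and 2.84-fold (edgeR adjusted p = 2.61e-12 and 1.51e-10). Zeb1 rose 2.26-fold and Ppm1a, a phosphatase known to act on SMADs, 1.80-fold (edgeR adjusted p = 1.02e-13 and 3.01e-14). Of 17 genes for secreted or surface regulators of BMP, most of them antagonists, 9 were tested, with 5 called higher and 3 lower (median 0.64). Fst, follistatin, which binds activin and some BMPs, fell 9.88-fold, from 31.3 ± 2.02 to 3.14 ± 0.493 CPM (SD, n = 3; edgeR adjusted p = 1.25e-17). Bmper fell 1.61-fold (edgeR adjusted p = 0.00165). Kcp, which is known to enhance BMP signalling rather than block it, rose 11.3-fold, from 1.06 ± 0.263 to 12.0 ± 1.28 CPM, and Fstl1 rose 1.56-fold (edgeR adjusted p = 3.99e-13 and 6.11e-10). The other 3 called higher were Chrd, Crim1 and Nbl1, by 5.86-fold, 5.35-fold and 2.49-fold (edgeR adjusted p = 2.4e-07, 4.47e-07 and 5.37e-09), and Fstl3 fell 1.49-fold (0.0145). Over the undifferentiated group Kcp had 22 reads, Chrd 14 and Crim1 14. Kcp, Chrd and Crim1 passed the filter on low counts only through the differentiated libraries, where they are high. Their folds thus rest on few undifferentiated reads, and the 5 called higher include them. Of the 17 genes 6 had no read, Nog and Grem1 among them.

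Of 11 tested other genes known to respond to BMP in some tissue, 7 were called lower and 2 higher, against 38.6% and 40.3% of all tested genes. Their median log2 fold change was -0.98. The list was chosen with earlier results of these data known, so nothing is read from this count. Dlx2, a homeobox gene of forebrain and neural crest, had 341, 409 and 301 reads in undifferentiated and 36, 59 and 26 in differentiated replicates 1, 2 and 3. It fell 10.2-fold, from 49.7 ± 2.11 to 4.76 ± 1.45 CPM (SD, n = 3; edgeR adjusted p = 6.95e-19). Tbx2, a T-box repressor gene, fell 5.25-fold, from 158 ± 4.18 to 30.1 ± 4.33 CPM (SD, n = 3; edgeR adjusted p = 7.93e-21). Runx2 rose 1.37-fold (edgeR adjusted p = 0.000451). Sp7, a bone transcription factor gene, had 3 reads in undifferentiated and 94 in differentiated cells, a ratio of 26.5 (95% exact binomial interval 8.80 to 131, for counting error only; edgeR adjusted p = 2.9e-09). Its fitted log2 fold change was 4.58, and it was 3.96 without undifferentiated replicate 2 and 5.52 without undifferentiated replicate 3. Sp7 passed the filter on low counts only through the differentiated libraries.

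**Figure D4:**
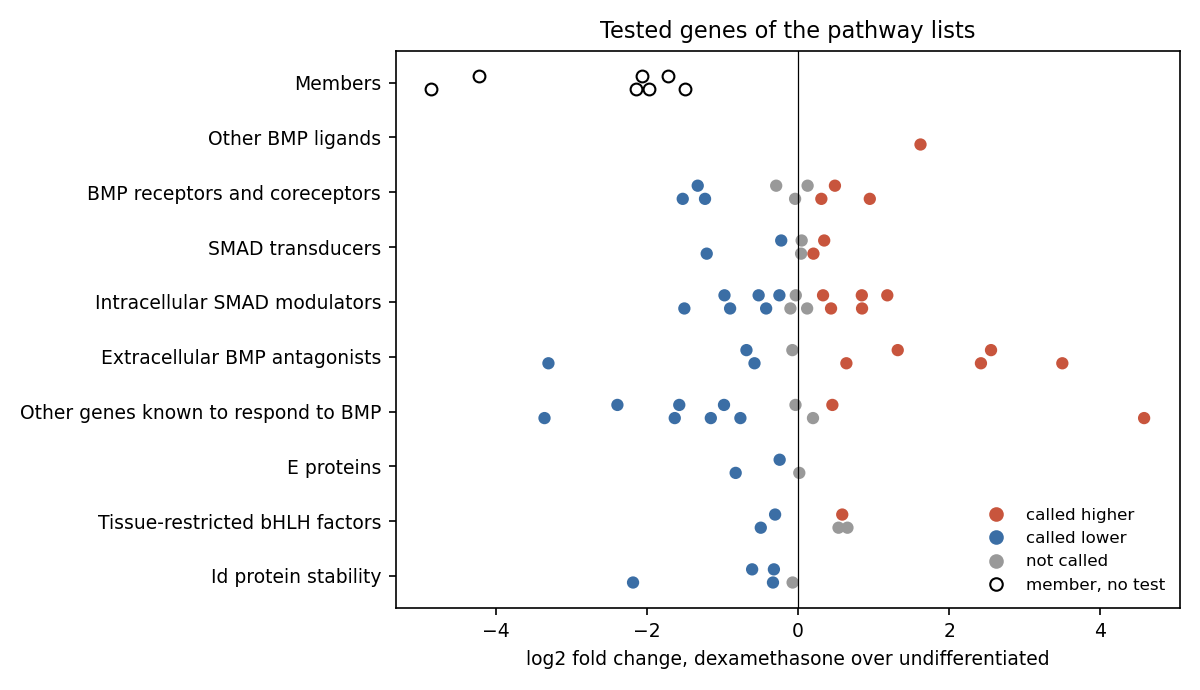
Log2 fold change, dexamethasone over undifferentiated, of each tested gene in the lists around the members; open circles are the members, which carry no test, and filled circles are coloured by their call at an edgeR adjusted p under 0.05. Receptors, SMAD transducers and the other genes known to respond to BMP lie on both sides of 0. Of the last list 7 of 11 were called lower, where 38.6% of all tested genes were called lower. That list was chosen with earlier results of these data known, so nothing is read from its count. The rightmost point, Sp7, rests on 3 undifferentiated reads.

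The tissue-restricted bHLH factors, which form DNA-binding pairs with E proteins, were largely not detected: of 33 looked at, 18 had no read and 5 passed the filter. Hand2, a factor of sympathetic neurons and the most abundant of them, was at 1135 ± 29.3 and 919 ± 24.5 CPM (SD, n = 3), 1.24-fold lower (edgeR adjusted p = 1.12e-06). Tal1 rose 1.50-fold and Twist1 fell 1.41-fold (edgeR adjusted p = 1.78e-06 and 0.0053). The median log2 fold change of the 5 was 0.53. Of 5 genes for proteins that act on the stability of Id proteins, 4 were called lower and none higher, where 38.6% of all tested genes were called lower and 78.9% either way (median log2 fold change -0.33). Usp1, whose product removes ubiquitin from Id proteins, fell 4.55-fold, from 138 ± 3.68 to 30.3 ± 1.22 CPM (SD, n = 3; edgeR adjusted p = 2.99e-21), while its cofactor gene Wdr48 was at 69.6 ± 4.49 and 66.3 ± 1.97 CPM and was not called. Fzr1, which directs Id proteins to the anaphase-promoting complex, fell 1.53-fold (edgeR adjusted p = 2.31e-09). Over all 157 genes of these and the TGF-beta, activin, Hes and Hey lists, 84 were tested, and 31 were called higher and 33 lower, with a median log2 fold change of -0.03.

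The genes whose course over the 6 libraries was nearest to Id1, Id2 and Id3 were looked up among 9765 tested genes with an official symbol and at least 5 CPM in undifferentiated cells. Likeness was the root mean square distance of log2 CPM, relative to the undifferentiated mean. Nearest to Id2 were Nusap1, Ncapg and Kif15, all genes of mitosis, at distances of 0.0908, 0.0953 and 0.0957 log2 units. Nearest to Id3 were Spc24, a kinetochore gene, and Rrm2 and Mcm5, genes of DNA replication, at 0.148, 0.341 and 0.350. Nearest to Id1 were Gabpb2, Myo19 and Bend3 at 0.0564, 0.0723 and 0.0746. With 2 groups this likeness mostly reflects the size of the fall, which was already known for Id2 and Id3, and it is a description. Whether genes of mitosis or DNA replication are common among all genes that fell as far was not tested.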

How the data were processed

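The members, gene lists and alternatives were chosen with earlier results of these data known. The deposited values are raw counts that the authors made, per the file headers, with featureCounts 1.6.4, by summing exon reads per gene identifier (Ensembl 96), strand setting 1, with no option for reads that align to several places. Per the submitters' processing notes, HISAT2 2.2.0, Subread 1.6.4, Trim Galore 0.6.4, DESeq2, FastQC 0.11.9 and GRCm38.p6 were used. Symbols were matched for 55450 of 55536 identifiers, including all 8 members.

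Genes were kept by edgeR's filterByExpr (minimum count 10, minimum total 15), which left 12664 with 99.8% of reads. They were scaled by TMM and tested with edgeR 4.0.16 (glmQLFit, glmQLFTest, R 4.3.3), with the group as the only term and Benjamini-Hochberg adjustment over all 12664. Scaling by TMM takes most genes to be unchanged, which 78.9% called genes put in doubt, so folds are relative to the counted mRNA. SEs are the log2 fold change over the square root of F. Promoter letters came from RefSeq.

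Besides the members, the genes named were from each list up to 2 called genes in either direction (lowest adjusted p, at least 1 CPM in a group), the E proteins, SMAD transducers and BMP receptors, and the 3 nearest in course to each of Id1, Id2 and Id3. Pecam1, Cdh5, Kdr, Dcn, Wdr48, Chrd, Crim1, Nbl1, Fstl3, genes without reads and genes that overlap or resemble members were named after their values were seen. Some genes that the rule names are not reported here.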

Additional observations from a re-analysis of the deposited data

How the results depend on the processing

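The alternatives were other scalings (RLE, upper quartile, library totals alone), DESeq2 1.42.0, no filter, a filter of 1 CPM in at least 3 libraries, limma 3.58.1 with voom, each library left out, the replicate number as a block and an adjusted p under 0.01. All 7 members with reads stayed lower in all 14 alternatives that apply to them. Id1 ranged from 2.58-fold to 3.04-fold and Id3 from 23.2-fold to 36.3-fold. The log2 fold change of Id2 moved by more than the spread between replicates with upper quartile factors (-4.11) and with library totals alone (-4.09). These 2 scalings moved the median of all tested genes from 0.02 to 0.12 and 0.14. Same-numbered libraries did not deviate together (r = -0.0947, 0.0357 and -0.0710 for numbers 1, 2 and 3), and with the replicate block 30 other pathway genes were called higher and 33 lower. Over all alternatives these counts stayed between 30 and 39 and between 28 and 34. Of the 44 other genes of the lists named by the rule, 8 changed their call, or their direction without a call, in at least 1 alternative; all 8 had log2 fold changes within 0.25 of 0. The cause was not tested. Depth limits Id3 and Id4 in differentiated cells, with 16 to 39 reads per library, and Bmp4, with none.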

Other observations

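The TGF-beta and activin branch, which shares SMAD4 and SMAD7 with the BMP branch, was looked at beside it. Of 10 tested genes for ligands, receptors and proteins that bind latent TGF-beta, 7 were called higher and 1 lower. Among all tested genes 40.3% were called higher and 38.6% lower. The median log2 fold change of the 10 was 0.55. Genes for the latent TGF-beta binding proteins were among the 7, so these values are not those of ligands and receptors alone. Tgfbr3, the coreceptor betaglycan, rose 4.34-fold, from 15.5 ± 2.50 to 66.3 ± 3.41 CPM (SD, n = 3; edgeR adjusted p = 2.2e-17). Ltbp3, which binds latent TGF-beta, rose 2.86-fold (edgeR adjusted p = 4.23e-17). The type 1 receptor gene Tgfbr1 was 1.15-fold lower (edgeR adjusted p = 0.00174, but 0.111 with upper quartile factors and 0.222 with library totals alone), and the type 2 receptor gene Tgfbr2 had no read. Of 5 tested genes known to respond to TGF-beta 1 was called higher and 2 lower (median log2 fold change -0.74). Tgfbi rose 2.07-fold, while Ccn1 fell 3.33-fold (edgeR adjusted p = 3.01e-12 and 3.69e-05). Ccn1 had 60 reads in undifferentiated and 21 in differentiated cells, and passed the filter on low counts only through the undifferentiated libraries.

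Hes, Hey and related bHLH repressors, a group of which only some members are known to hold back neuronal differentiation, moved both ways. Of 7 tested, 4 were called higher and 1 lower (median log2 fold change 0.46). Among all tested genes 40.3% were called higher, 38.6% lower and 78.9% either way. Hes1 fell 1.87-fold, from 26.6 ± 1.80 to 14.3 ± 0.716 CPM (SD, n = 3; edgeR adjusted p = 1.46e-08). The clock-linked repressor genes Bhlhe41 and Bhlhe40 rose 10.1-fold and 3.07-fold (edgeR adjusted p = 3.89e-17 and 1.31e-15).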
